A study of Saccharomyces cerevisiae with 48 samples.

Results

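Chromosome VI (Chr VI) of budding yeast is a small chromosome of 270161 bp, and its replication was followed here in all its 1-kb bins. Of 11338 bins with a copy number value anywhere in the series, 251 lay on Chr VI, of 271 that its length allows. Of these, 249 had a value in all 44 samples, 1 bin near the left telomere in 28 samples and 1 other in 25. The bins at 1 to 6000, 7001 to 14000, 138001 to 144000 and 270001 to 270161 were not analysed here. Chr VI was divided by distance from its telomeres and its centromere, CEN6 at 148510 to 148627, into a left end (the outermost 40 kb, 27 bins), a left arm (79 bins), a centre (within 30 kb of CEN6, 54 bins), a right arm (51 bins) and a right end (the outermost 40 kb, 40 bins).

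The samples were genomic DNA of 4 W303 strains, all MATa, with the alleles ade2-1, can1-100, his3-11, 15, leu2-3, 112, trp1-1, ura3-1 and rad5-535 in common. All 4 also carried a deletion of SML1, which encodes an inhibitor of ribonucleotide reductase, marked in the SSDDCS strains with a cassette called HphNT in the labels and HphMX in the study's strain list, and with URA3 in the sml1∆ strains. In 2 strains, termed SSDDCS, additional copies of Sld2, Sld3, Dpb11, Dbf4, Cdc45 and Sld7 were driven from the galactose-inducible GAL1-10 promoter, with Sld3 and Dbf4 in the forms labelled SLD3-A and Dbf4-A, and in the other 2, the sml1∆ strains, they were not. By the study's strain list, these copies sit at leu2, his3 and trp1 with the markers LEU2, HIS3 and TRP1, so the markers follow the status. Each status was present once with ARS1008 and ARS1009 deleted and once with ARS816 and ARS818 deleted, and these deleted origins lie on other chromosomes. The same list gives the ARS818 deletion the marker KanMX. Cells grown in raffinose were arrested in G1 with the pheromone alpha factor, galactose was added to the arrested cells of every strain, and they were released into galactose and sampled at 5, 10, 15, 20, 25, 30, 35, 40, 45, 50 and 60 min, with 1 time course per strain. The values are copy number ratios, the reads of a timepoint over the reads of the same strain in G1 per bin, scaled by a bulk value from flow cytometry, so that 1 is unreplicated and 2 is replicated. Trep is the time at which a logistic curve fitted to the 11 ratios of a bin passed 1.5. The SD beside a mean is over bins of that region, which are neighbours and not replicates, and the spread between the 2 time courses of a status is the only replicate measure.

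Replication starts at origins, short A+T-rich sequences that the origin recognition complex binds and on which the inactive Mcm2-7 helicase is loaded in G1. The helicase is activated in S phase by factors that include the 6 SSDDCS proteins, which are present in smaller numbers than the origins, so that in unperturbed cells some origins fire early, some late, and some are replicated by a fork from a neighbour before they fire. Origins appear as peaks of early Trep and the regions where forks meet as valleys between them. Chr VI has a long history as a model of this order, with early, efficient origins such as ARS606 and ARS607 near its centre and on its right arm, and late or inefficient origins towards its telomeres.

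The R64 annotation places 14 origins on Chr VI, and the following 6 are shown because the results turn on them, as the 200 bases centred on each origin, on the forward strand of R64. The annotation describes ARS606 and ARS607 as highly efficient and early, ARS603 as efficient but late, ARS609 as very late, ARS608 as extremely inefficient and ARS600.4, in the left end, as strong with no time given. The capitals mark the best match, on either strand, to the ARS consensus sequence, the 11-base T-rich element recognised by the origin recognition complex, which reads as A-rich where it lies on the reverse strand.
ARS600.4, chrVI:20702-20901: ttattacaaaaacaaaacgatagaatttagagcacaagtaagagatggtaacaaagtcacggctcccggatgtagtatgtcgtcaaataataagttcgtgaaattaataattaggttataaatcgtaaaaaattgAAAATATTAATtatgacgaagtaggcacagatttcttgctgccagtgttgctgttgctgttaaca
ARS603, chrVI:68711-68910: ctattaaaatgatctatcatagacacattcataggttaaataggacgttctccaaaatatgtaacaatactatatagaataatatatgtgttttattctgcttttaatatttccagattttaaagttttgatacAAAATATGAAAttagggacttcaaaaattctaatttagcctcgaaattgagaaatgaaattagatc
ARS606, chrVI:167575-167774: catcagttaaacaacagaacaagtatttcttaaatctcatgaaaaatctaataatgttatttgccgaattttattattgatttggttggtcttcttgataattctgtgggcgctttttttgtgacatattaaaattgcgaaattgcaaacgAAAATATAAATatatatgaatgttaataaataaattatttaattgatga
ARS607, chrVI:199351-199550: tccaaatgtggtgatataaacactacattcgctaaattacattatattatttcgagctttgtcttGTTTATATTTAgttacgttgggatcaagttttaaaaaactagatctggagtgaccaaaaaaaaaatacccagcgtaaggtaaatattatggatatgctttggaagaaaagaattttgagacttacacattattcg
ARS608, chrVI:216431-216630: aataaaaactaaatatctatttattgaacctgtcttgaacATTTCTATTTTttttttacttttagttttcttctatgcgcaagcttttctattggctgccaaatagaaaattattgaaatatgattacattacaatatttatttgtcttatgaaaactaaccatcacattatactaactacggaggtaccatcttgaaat
ARS609, chrVI:256255-256454: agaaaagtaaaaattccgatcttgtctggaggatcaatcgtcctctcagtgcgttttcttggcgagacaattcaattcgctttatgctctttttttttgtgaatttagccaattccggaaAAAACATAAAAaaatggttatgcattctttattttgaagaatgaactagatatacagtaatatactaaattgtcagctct

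All 14 windows on Chr VI held a match to the consensus with no more than 1 mismatch, against 78.4% of the windows of 352 annotated origins and 18.8% of all 60349 windows of this length along the genome. An exact match was present in 6 of the 14 (42.9%), against 32.7% of annotated origins and 1.23% of genome windows, and these 6 included both the early ARS606 and the late ARS609. Among the origins shown with 1 mismatch were likewise an early one, ARS607, and a late one, ARS603. Between 64.5 and 76.0% of the bases were A or T. The motif GTAAACA, on either strand, a core of the sites bound by forkhead proteins, was found in 1 of the 14 windows, that of ARS603.1, against 8.24% of annotated origins and 3.27% of genome windows. By the annotation, the midpoint of ARS604 lies within BLM10, that of ARS605 within MSH4 and that of ARS607 within the non-coding RNA gene RUF22, and the other midpoints lie in no gene.

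Over-expression of SSDDCS removed most of the time difference between the ends of Chr VI and its middle. In the SSDDCS strains the 40-kb ends replicated on average 0.73 min (ARS1008∆ ARS1009∆) and 1.22 min (ARS816∆ ARS818∆) after the centre and right arm, against 11.9 min and 8.05 min in the sml1∆ strains of the same backgrounds. The change was -11.1 min and -6.83 min. Both SSDDCS values lay below both sml1∆ values, and the means of 0.97 and 9.95 min differed by -8.98 min. With 2 time courses against 2, the exact two-sided permutation test gave p = 0.333, which is the smallest p that the 6 relabellings allow.

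In minutes after release, the change came from both ends, while the centre moved little. The left end had a mean Trep of 13.4 ± 1.67 min and 18.4 ± 1.43 min in the SSDDCS ARS1008∆ ARS1009∆ and ARS816∆ ARS818∆ strains, against 27.0 ± 2.41 min and 29.0 ± 2.94 min in the corresponding sml1∆ strains (SD over bins). The right end had 17.8 ± 3.17 min and 21.8 ± 2.75 min in the SSDDCS strains, against 30.2 ± 3.35 min and 30.0 ± 2.94 min in the sml1∆ strains. At both ends the 2 SSDDCS strains were earlier than the 2 sml1∆ strains, by means of 13.6 and 10.5 min on the left and 12.3 and 8.23 min on the right. In the centre the SSDDCS strains had 15.3 ± 3.27 min and 19.5 ± 2.02 min, against 16.0 ± 1.53 min and 21.0 ± 1.84 min in the sml1∆ strains. The centre thus differed by only -0.66 and -1.52 min, less than the genome-wide median shift of -5.50 and -4.18 min, and the 2 statuses overlapped there. With that median taken off, the centre was later with SSDDCS, by 4.84 and 2.66 min. The left end then shifted by -8.13 and -6.33 min and the right end by -6.82 and -4.05 min.

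The right arm, which holds ARS607, was nearer to the centre than to the ends. It had 15.4 ± 2.41 min and 19.0 ± 1.88 min in the SSDDCS strains, against 18.3 ± 3.39 min and 22.1 ± 3.11 min in the sml1∆ strains. Its shift was -2.91 and -3.12 min, and the statuses overlapped. The left arm, which lies between the left end and ARS603.5, had 16.3 ± 2.93 min and 20.6 ± 2.43 min in the SSDDCS strains, against 23.4 ± 4.47 min and 26.7 ± 3.64 min in the sml1∆ strains. Its shift was -7.12 and -6.10 min, with both SSDDCS strains earlier than both sml1∆ strains. The time courses also differed as a whole, with genome-wide median Trep values of 16.1 and 20.7 min in the SSDDCS strains and 22.3 and 25.2 min in the sml1∆ strains, so the genome-wide median was taken off in the values called relative below.

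**Figure D1:**
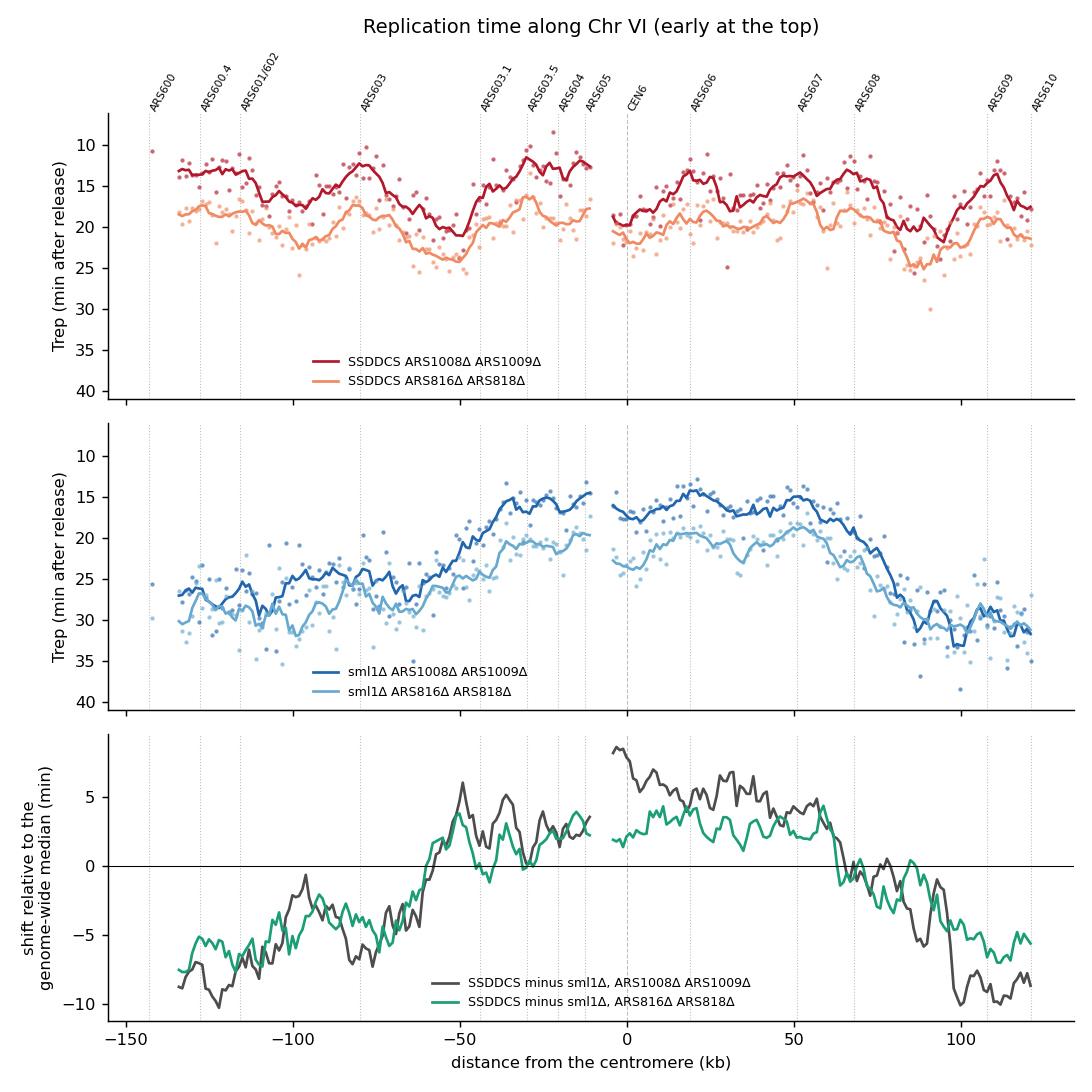
Trep per 1-kb bin of Chr VI (points) and its average over 5 bins (lines) in the SSDDCS strains (top) and sml1∆ strains (middle), and the SSDDCS minus sml1∆ difference less its genome-wide median (bottom), in minutes, against distance from the centromere in kb. Dotted lines mark origins and the dashed line CEN6. The sml1∆ profiles fall away to the left of the centre and, on the right, beyond ARS607. The ends of the SSDDCS profiles lie at times close to those of the centre and right arm, 0.73 and 1.22 min later on average.

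Relative to the genome, the order of the left end and the centre was turned round. By genome-wide percentile of Trep, where a low percentile is early, the left end stood at 23.4 and 22.8 in the SSDDCS strains and at 78.4 and 74.4 in the sml1∆ strains. The centre stood at 40.3 and 35.7 in the SSDDCS strains and at 10.2 and 14.6 in the sml1∆ strains. The left end was thus earlier than the centre in both SSDDCS strains and later in both sml1∆ strains. The right end moved less far, to 60.7 and 56.7 in the SSDDCS strains, against 89.0 and 79.7 in the sml1∆ strains, and remained the latest zone of Chr VI in all 4.

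Along the chromosome, 85 of 249 bins (34.1%) were relatively earlier in both SSDDCS strains than in both sml1∆ strains, against 23.1% of all 11311 bins tested. These were 22 of 25 bins of the left end, 31 of 79 of the left arm, 1 of 54 of the centre, 4 of 51 of the right arm and 27 of 40 of the right end. In the other direction, 93 bins (37.3%) were relatively later in both SSDDCS strains, against 32.0% of all bins, and 47 of these lay in the centre, 26 in the right arm, 19 in the left arm, 1 in the right end and 0 in the left end. Over Chr VI as a whole the shares lay near those of the genome, as 125 of 250 bins (50.0%) in the ARS1008∆ ARS1009∆ background and 139 of 250 (55.6%) in the ARS816∆ ARS818∆ background were earlier than the genome-wide median shift, against 50.0% of all bins by construction.

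Without centring, most of Chr VI was earlier with SSDDCS. In the ARS1008∆ ARS1009∆ background 217 of 250 bins (86.8%, against 89.7% of all bins) had an earlier Trep with SSDDCS, and in the ARS816∆ ARS818∆ background 227 of 250 (90.8%, against 89.1%). The 142 bins (57.0%) at which both SSDDCS strains were earlier than both sml1∆ strains, against 54.3% of all bins, included all 25 bins of the left end and 39 of 40 of the right end but 3 of 54 in the centre. Only 2 bins had both SSDDCS strains later, against 0.495% of all bins. A later Trep within each background was found at 9 of 249 bins (3.61%, against 2.93% of all bins), of which 7 lay in the centre, and the delay at these 9 ranged up to 5.07 min in the first background and 1.26 min in the second.

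The copy number itself shows the same order over time. In the left end, the mean ratio at the 11 timepoints was 1.15, 1.33, 1.60, 1.83, 1.93, 1.95, 1.95, 1.95, 1.97, 2.001 and 1.98 in the SSDDCS ARS1008∆ ARS1009∆ strain and 1.01, 1.08, 1.31, 1.62, 1.83, 1.95, 1.95, 1.98, 1.996, 2.01 and 2.06 in the SSDDCS ARS816∆ ARS818∆ strain. It was 1.01, 1.11, 1.246, 1.29, 1.42, 1.61, 1.71, 1.86, 1.87, 1.91 and 1.97 in the sml1∆ ARS1008∆ ARS1009∆ strain and 0.98, 0.99, 1.07, 1.24, 1.39, 1.56, 1.72, 1.85, 1.87, 1.96 and 1.98 in the sml1∆ ARS816∆ ARS818∆ strain. The left end passed 1.5 between 10 and 20 min in the SSDDCS strains and between 25 and 30 min in the sml1∆ strains.

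In the centre, the ratio was 1.14, 1.30, 1.49, 1.73, 1.90, 1.92, 1.96, 1.97, 1.96, 1.98 and 1.99 in the SSDDCS ARS1008∆ ARS1009∆ strain and 1.01, 1.07, 1.248, 1.56, 1.81, 1.92, 1.99, 2.01, 2.01, 2.02 and 2.02 in the SSDDCS ARS816∆ ARS818∆ strain. In the sml1∆ ARS1008∆ ARS1009∆ strain it was 1.03, 1.10, 1.41, 1.88, 1.91, 1.97, 1.97, 1.96, 1.98, 2.001 and 2.01, and in the sml1∆ ARS816∆ ARS818∆ strain 1.00, 1.01, 1.10, 1.44, 1.81, 2.003, 2.08, 2.10, 2.04, 2.04 and 2.02. In both sml1∆ strains the centre ran ahead of the genome-wide median ratio from 15 min on, by as much as 1.88 against 1.44 at 20 min in the ARS1008∆ ARS1009∆ background. The SSDDCS ARS1008∆ ARS1009∆ culture had a bulk value of 1.14 at 5 min already, against 1.00 to 1.03 in the other 3.

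In the right end, the ratio was 1.12, 1.28, 1.45, 1.61, 1.73, 1.81, 1.86, 1.89, 1.91, 1.96 and 1.98 in the SSDDCS ARS1008∆ ARS1009∆ strain and 1.00, 1.06, 1.24, 1.46, 1.68, 1.80, 1.89, 1.93, 1.95, 1.93 and 2.01 in the SSDDCS ARS816∆ ARS818∆ strain. It was 1.00, 1.09, 1.16, 1.18, 1.34, 1.57, 1.68, 1.77, 1.83, 1.88 and 1.91 in the sml1∆ ARS1008∆ ARS1009∆ strain and 1.00, 1.01, 1.08, 1.19, 1.38, 1.52, 1.67, 1.82, 1.86, 1.93 and 1.99 in the sml1∆ ARS816∆ ARS818∆ strain. The right end stayed the lowest of the zones plotted from 15 to 50 min in the SSDDCS strains, and between 20 and 40 min it lay below the centre in all 4 strains.

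**Figure D2:**
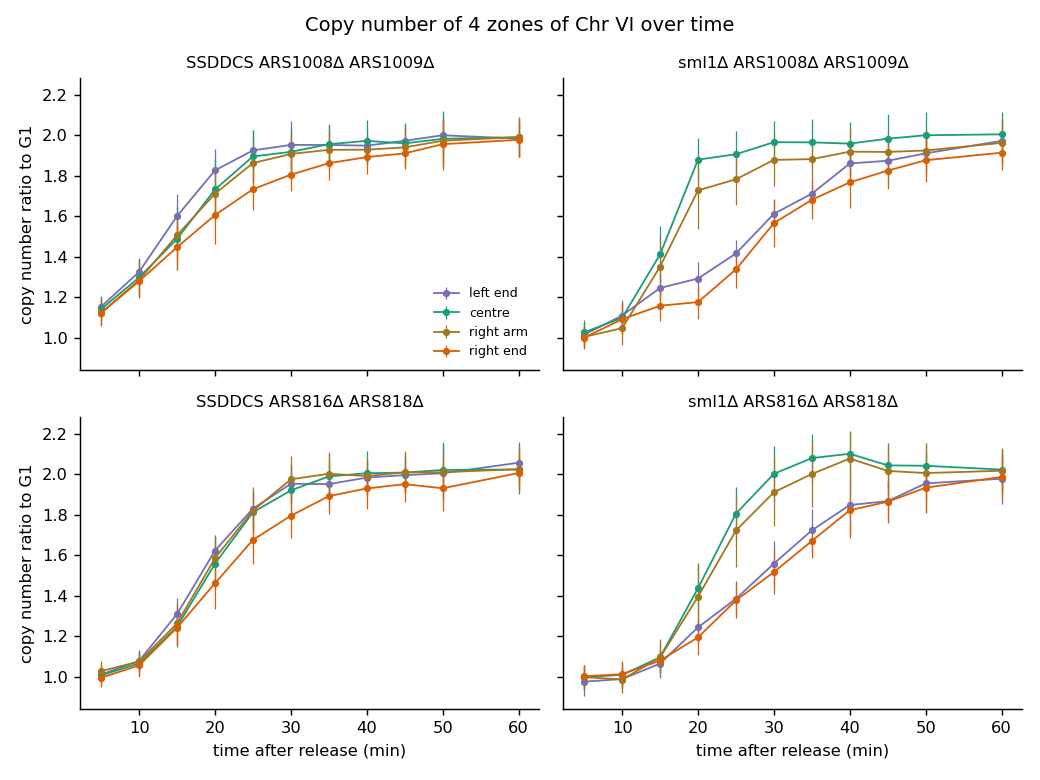
Mean copy number ratio to G1 (y axis) against minutes after release (x axis) for the left end, centre, right arm and right end of Chr VI, with bars for the SD over bins. SSDDCS strains are on the left and sml1∆ strains on the right, with 1 origin deletion background per row, and the ends separate from the centre in the sml1∆ strains.

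The bulk value of a sample scales all its bins alike, so the ratio of an end to the centre within a sample is free of it. The left end fell no lower than 0.988 of the centre (at 40 min) and 0.981 (at 35 min) in the SSDDCS strains, against 0.687 (at 20 min) and 0.767 (at 25 min) in the sml1∆ strains. At 15 min it lay above the centre in both SSDDCS strains, at 1.08 and 1.05, and below it in the sml1∆ strains, at 0.883 and 0.972. The right end fell to 0.915 and 0.925 of the centre in the SSDDCS strains, both at 25 min, against 0.626 (at 20 min) and 0.758 (at 30 min) in the sml1∆ strains. The lowest value of each end was higher in both SSDDCS strains than in both sml1∆ strains.

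**Figure D3:**
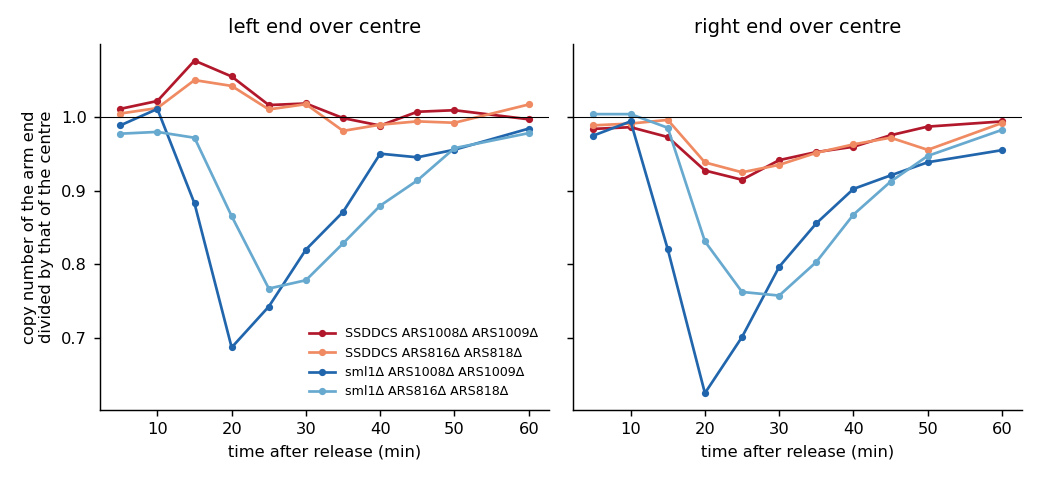
Copy number of the left end (left panel) and right end (right panel) of Chr VI divided by that of the centre in the same sample (y axis) against minutes after release (x axis), 1 line per strain. A value of 1 means equal copy number, and the sml1∆ lines dip to between 0.626 and 0.767 while the lowest SSDDCS value is 0.915.

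At the early origins of the centre and right arm, Trep was close in the 2 statuses. ARS607, on the right arm at 199395 to 199505, had 14.1 ± 0.49 min and 16.9 ± 1.14 min in the SSDDCS strains, against 15.3 ± 0.88 min and 18.6 ± 0.74 min in the sml1∆ strains (4 bins each). ARS606, at 167547 to 167801, had 13.1 ± 1.17 min and 19.3 ± 2.41 min in the SSDDCS strains, against 14.3 ± 1.49 min and 19.7 ± 0.63 min in the sml1∆ strains. ARS605, at 135985 to 136085, had 12.3 ± 0.61 min and 17.8 ± 0.87 min in the SSDDCS strains, against 14.6 ± 1.09 min and 19.6 ± 1.78 min in the sml1∆ strains. At these 3 origins the shift was between -0.37 and -2.32 min, and the SSDDCS value of the ARS816∆ ARS818∆ background was later than the sml1∆ value of the other, so the statuses overlapped.

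Among the 12 origin entries with 2 or more bins, these 3 were the earliest in both sml1∆ strains, with ARS606 first in the ARS1008∆ ARS1009∆ background and ARS607 first in the other. In both SSDDCS strains ARS603.5, at 118637 to 118957, was the earliest of these entries. It had 11.2 ± 1.08 min and 16.2 ± 2.3 min in the SSDDCS strains, against 17.4 ± 2.52 min and 20.2 ± 0.55 min in the sml1∆ strains, and its shift of -6.18 and -4.02 min was close to the genome-wide median. In the SSDDCS ARS816∆ ARS818∆ strain its mean includes a poorly fitted bin, 119001 to 120000, at 13.3 min with a root mean square residual of 0.243. ARS607 followed at 16.9 min in that strain, so the first place of ARS603.5 there depends on this bin. Relative to that median, ARS605, ARS606 and ARS607 were later with SSDDCS in both backgrounds, by 2.37 to 4.39 min, whereas without centring they were slightly earlier, as above.

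The origins of Chr VI that were latest in the sml1∆ strains moved most, though among them ARS603 stood there at genome percentiles of 60.7 and 51.4. ARS609, in the right end at 256277 to 256431, had 15.0 ± 1.40 min and 18.7 ± 1.08 min in the SSDDCS strains, against 28.8 ± 2.22 min and 29.4 ± 5.07 min in the sml1∆ strains. ARS600.4, in the left end at 20702 to 20900, had 13.6 ± 1.14 min and 17.4 ± 0.53 min in the SSDDCS strains, against 26.5 ± 2.98 min and 26.1 ± 2.19 min in the sml1∆ strains. ARS603, at 68759 to 68861 on the left arm, had 12.2 ± 1.89 min and 17.5 ± 1.07 min in the SSDDCS strains, against 24.1 ± 3.78 min and 25.4 ± 1.7 min in the sml1∆ strains. At each of these origins both SSDDCS strains were earlier than both sml1∆ strains, and the shift ranged between -7.95 and -13.8 min. The overlapping ARS601 and ARS602, which share the same bins, shifted by -12.0 and -11.0 min.

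ARS610 and ARS600 are the outermost origins. ARS610, at 269417 to 270035, was measured in 2 bins and had 18.4 ± 0.96 min and 21.3 ± 1.24 min in the SSDDCS strains, against 33.3 ± 2.54 min and 30.5 ± 4.98 min in the sml1∆ strains, and it was the latest of the 12 origin entries with 2 or more bins in every strain. ARS600, with 1 bin and so not among the 12 entries, had 10.7 min in the SSDDCS ARS1008∆ ARS1009∆ strain, against 25.6 min in its sml1∆ counterpart. The 12 entries together spanned 7.20 and 5.16 min in the SSDDCS strains, against 18.9 and 11.9 min in the sml1∆ strains.

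ARS608, ARS604 and ARS603.1 shifted less than the origins that were latest in the sml1∆ strains. ARS608, at 216357 to 216704 in the right arm, had 13.1 ± 1.81 min and 18.3 ± 0.94 min in the SSDDCS strains, against 19.0 ± 1.14 min and 22.6 ± 0.87 min in the sml1∆ strains, a shift of -5.92 and -4.29 min. ARS604 had 12.4 ± 3.42 min and 20.0 ± 1.13 min in the SSDDCS strains, against 16.3 ± 0.85 min and 21.8 ± 1.86 min in the sml1∆ strains, a shift of -3.91 and -1.83 min. ARS603.1 had 16.7 ± 1.45 min and 19.9 ± 1.65 min in the SSDDCS strains, against 19.7 ± 1.16 min and 24.0 ± 0.71 min in the sml1∆ strains, a shift of -3.01 and -4.06 min. ARS608 was earlier than its flanks, the bins 5 to 10 kb away, by 2.82 and 1.43 min in the SSDDCS strains and by 0.77 and 1.52 min in the sml1∆ strains, while ARS604 was later than its flanks in every strain.

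**Figure D4:**
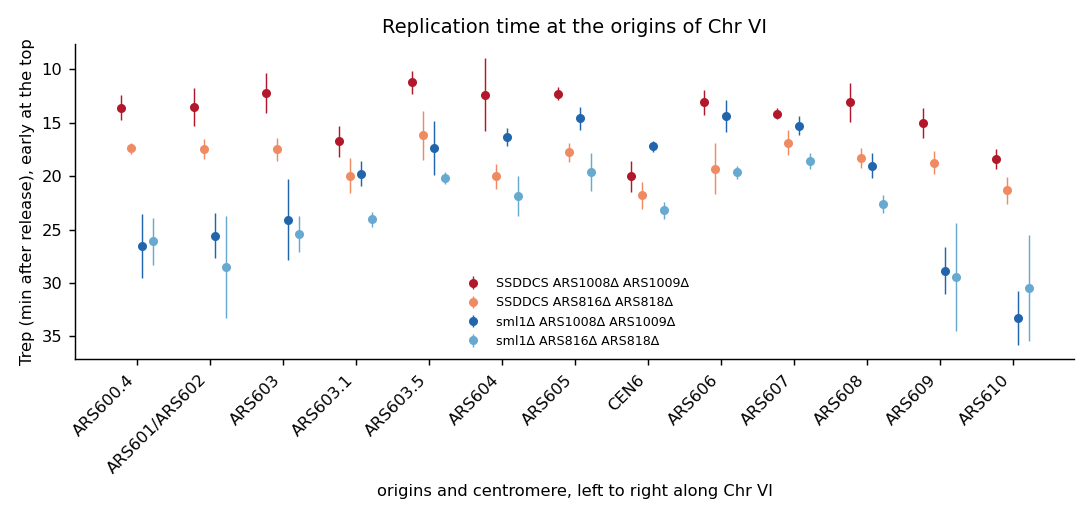
Mean Trep in minutes (y axis, early at the top) over the bins within 2 kb of each origin of Chr VI and of CEN6 (x axis, left to right along the chromosome), with bars for the SD over bins. The SSDDCS strains stand left of the sml1∆ strains at each position, and the statuses lie far apart at ARS600.4, ARS601/ARS602, ARS603, ARS609 and ARS610.

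The order of the 12 origin entries was held more closely between the 2 sml1∆ strains than between the 2 SSDDCS strains. Spearman's rho across the 12 was 0.40 between the SSDDCS strains and 0.96 between the sml1∆ strains. Between the statuses it was 0.55 within the ARS1008∆ ARS1009∆ background and 0.31 within the ARS816∆ ARS818∆ background. The entries spanned only 7.20 and 5.16 min in the SSDDCS strains, against 18.9 and 11.9 min in the sml1∆ strains. How far this narrower span lowers rho was not tested. Over the 250 bins of Chr VI, Pearson's r was 0.57 between the SSDDCS strains and 0.79 between the sml1∆ strains. Neighbouring origins and bins can be copied by the same fork and share the bulk values and G1 sample of their strain, so they are not independent, and these values describe the profiles and were not tested.

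In the profile averaged over 5 bins, peaks were counted where they stood out by at least 1 min. There were 14 and 9 peaks in the SSDDCS strains and 17 and 12 in the sml1∆ strains, of which 9 and 9, and 10 and 9, lay within 5 kb of an annotated origin. Some valleys also lay this near an origin, such as those 0.59 and 0.41 kb from ARS604 in the sml1∆ strains. The share of all bins within 5 kb of an origin was not computed, so these counts have no background to be read against. Other averaging widths and prominences gave 5 to 22 peaks in the SSDDCS strains and 6 to 31 in the sml1∆ strains. The 7 peaks found in both SSDDCS strains lay within 5 kb of ARS603, ARS603.5, ARS605, ARS606, ARS607, ARS608 and ARS609, at smoothed times of 11.5 to 13.5 min and 16.2 to 18.7 min. In the SSDDCS ARS816∆ ARS818∆ strain the peak near ARS606 began at 164001, and a shallow valley at 166001, with a prominence of 1.23 min, lay closer to the origin. Of the 10 peaks found in both sml1∆ strains, those at ARS605, ARS606 and ARS607 reached 14.2 to 14.9 min and 18.7 to 19.4 min. The ones at ARS601/ARS602, ARS603 and ARS609 reached only 23.8 to 28.6 min and 25.0 to 28.3 min. Another lay near ARS603.5, at 15.1 and 20.4 min. In the sml1∆ ARS1008∆ ARS1009∆ strain this peak began at 114001, 4.30 kb from ARS603.5. A valley at 119001 in that strain, with a prominence of 1.92 min, lay closer to the origin, at 0.70 kb. The rest, which began at 39001 and 42001, 52001 and 56001, and 77001 and 75001, lay more than 5 kb from any annotated origin. With an average over 5 bins, a peak at ARS608 was shared by the 2 SSDDCS strains and not by the 2 sml1∆ strains, of which the ARS816∆ ARS818∆ strain alone had one nearby with a prominence of 1.38 min.

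The latest valleys were earlier with SSDDCS, while several valleys lay at similar places in both statuses. The latest smoothed valley shared by both sml1∆ strains began at 246001 and 250001 in the right end, at 33.2 and 31.7 min. In the SSDDCS strains the latest shared valleys began at 99001 and 98001, between ARS603 and ARS603.1, with 21.1 and 24.2 min, and at 233001 and 237001, between ARS608 and ARS609, with 20.5 and 25.1 min. The valley at 233001 was a minor one, with a prominence of 1.65 min. The latest valley of that strain, SSDDCS ARS1008∆ ARS1009∆, was not a shared one and began at 243001, at 21.8 min with a prominence of 8.34 min. A valley near CEN6, between ARS605 and ARS606, was present in both statuses, at 19.8 and 22.0 min in the SSDDCS strains and 17.9 and 23.9 min in the sml1∆ strains. Another, between ARS606 and ARS607, began at 179001 and 182001 in the SSDDCS strains and at 181001 and 183001 in the sml1∆ strains. Moving right from 5 to 30 kb beyond ARS607, Trep became later by 0.11 and 0.058 min per kb in the SSDDCS strains, against 0.34 and 0.34 min per kb in the sml1∆ strains. This stretch holds ARS608. Moving left over the same distances from ARS603.5, Trep became later by 0.30 and 0.26 min per kb in the SSDDCS strains, against 0.42 and 0.20 min per kb in the sml1∆ strains, so that the direction of the difference was not the same in the 2 backgrounds.

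At CEN6 the 2 backgrounds disagreed in sign, as they did at 38 of 249 bins of Chr VI (15.3%, against 15.3% of all bins). The 4 bins around CEN6 had 20.0 ± 1.46 min and 21.8 ± 1.28 min in the SSDDCS strains, against 17.2 ± 0.50 min and 23.2 ± 0.76 min in the sml1∆ strains. The shift was +2.81 min in the ARS1008∆ ARS1009∆ background and -1.41 min in the ARS816∆ ARS818∆ background. Relative to the genome-wide median shift it was later with SSDDCS in both, by 8.31 and 2.77 min. The percentile was 79.1 and 61.0 in the SSDDCS strains, against 16.2 and 31.1 in the sml1∆ strains.

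Landmark genes show these times for each zone. In the left end, AGP3, an amino acid permease gene, had 12.9 and 18.4 min in the SSDDCS strains, against 25.8 and 30.6 min in the sml1∆ strains. In the right end, HXK1, which encodes a hexokinase, had 14.9 and 18.5 min, against 29.3 and 25.9 min in the sml1∆ strains, and the subtelomeric IRC7 had 16.7 and 20.7 min, against 31.9 and 28.7 min. These 3 genes replicated earlier in both SSDDCS strains than in both sml1∆ strains. On the left arm, ACT1, the actin gene, had 18.2 and 20.8 min in the SSDDCS strains, against 24.2 and 28.5 min in the sml1∆ strains, and TUB2, the beta-tubulin gene, 16.6 and 21.5 min, against 25.4 and 27.5 min. In the centre, SMC1, a cohesin subunit gene, had 12.4 and 17.0 min, against 16.1 and 20.8 min in the sml1∆ strains, and NIC96, a nucleoporin gene beside CEN6, had 17.8 and 22.2 min, against 18.0 and 24.4 min. On the right arm, FAB1, a phosphatidylinositol phosphate kinase gene, had 16.7 and 19.3 min, against 16.4 and 20.9 min, so that it overlapped between the statuses, as NIC96 did, and its shift of +0.21 and -1.68 min differed in sign between the backgrounds. Of 20 landmark genes measured, 13 were earlier in both SSDDCS strains than in both sml1∆ strains, including 4 of 4 in the right end and 1 of 4 in the centre, and 0 were later. Of all bins of the genome, 54.3% were earlier in both by the same rule.

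Over all its bins, the spread of Trep on Chr VI was narrower with SSDDCS. The SD over bins was 3.07 and 2.44 min in the SSDDCS strains, against 6.01 and 4.55 min in the sml1∆ strains. This was 0.733 and 0.695 of the SD over the whole genome in the SSDDCS strains, against 1.18 and 1.07 in the sml1∆ strains. Chr VI thus varied more than the genome in the sml1∆ strains and less in the SSDDCS strains. The median absolute difference in relative Trep was 1.66 min between the 2 SSDDCS strains and 2.299 min between the 2 sml1∆ strains, against 4.49 and 3.04 min between the statuses within the 2 backgrounds.

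Set beside the other chromosomes, with both 40-kb ends compared with the centre alone, Chr VI had the largest gap of the 16 in both sml1∆ strains. The gap was 0.77 and 0.98 min in the SSDDCS strains, at ranks 4 and 2 of 16, against 13.0 and 8.59 min in the sml1∆ strains. The medians over chromosomes were -0.46 and -0.77 min in the SSDDCS strains, against 7.24 and 4.79 min in the sml1∆ strains. The next largest gaps in the sml1∆ strains were 11.2 min on Chr X and 7.93 min on Chr VIII. The change on Chr VI, -12.2 and -7.61 min, was the largest of the 16 in the ARS1008∆ ARS1009∆ background and the fourth largest in the other. In the first background Chr X was almost level with it, at -12.1 min. Among the 32 chromosome ends the shift of the left end of Chr VI ranked 3 in both backgrounds and that of the right end 4 and 12. In the SSDDCS strains the left end was among the earliest, at ranks 4 and 5 of 32 by percentile, and the right end among the latest, at ranks 30 and 31. These ranks describe the chromosomes of these 4 time courses, and no test of Chr VI against the others was made. The ends held unlike numbers of bins, such as 26 at the left and 40 at the right end of Chr VI and 7 and 6 at the right end of Chr VIII. Most bins nearest the left telomere of Chr VI were among those not analysed, so the ends are not compared at like distances from the telomere.

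**Figure D5:**
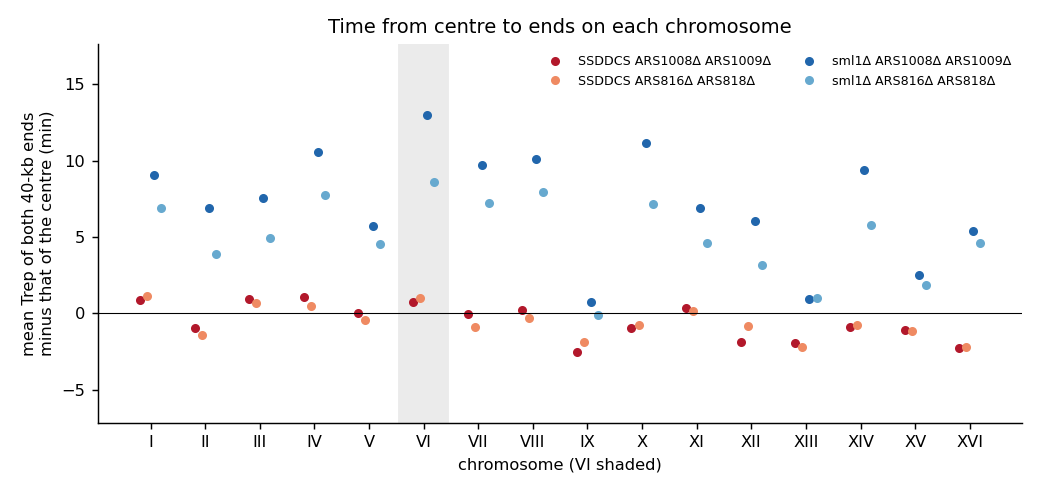
Mean Trep of both 40-kb ends minus that of the centre (y axis, minutes) for each of the 16 chromosomes (x axis, Chr VI shaded), 1 point per strain. The sml1∆ points are highest on Chr VI, at 13.0 and 8.59 min, and the SSDDCS points of Chr VI lie at 0.77 and 0.98 min.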

How the data were processed

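Genomic DNA of 4 strains was sequenced in G1 and at 11 timepoints. Per the labels, reads were mapped to sacCer3, the R64 assembly, with Bowtie2 2.3.4 and handled with SAMtools 1.7.2 and bedtools 2.26.0. The authors deposited, per 1-kb bin and timepoint, the ratio of uniquely mapped reads to those in G1 (same strain), multiplied by a bulk ratio between 1 and 2 fitted to flow cytometry. An error in a bulk value therefore moves all bins of that sample together. The 44 timepoint tables hold no read counts, so the depth is unknown and no counting interval was computed. The 4 G1 samples entered only as denominators.

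For Trep, a logistic rise between 1 and 2 was fitted, minimising squared residuals, to every bin of the genome with at least 6 timepoints, and the time at ratio 1.5, between 0 and 60 min, was read from it, with Python 3.11.15, numpy 2.4.6, pandas 2.3.3, scipy 1.17.1 and matplotlib 3.10.9. Tested on simulated data for 11321 bins, advances of 10 and 5 min planted in 100 bins each were recovered as medians of 10.5 min (SD 1.34) and 4.94 min (SD 1.32). The simulated ratios followed the same logistic rise that was then fitted, with independent noise and no error in the bulk values. The simulation therefore checks the fitting and not the accuracy of Trep in these samples. SSDDCS was compared with sml1∆ within each origin deletion background, with the genome-wide median shift taken off where values are called relative. Origins are means over bins within 2 kb, genes over the bins they overlap. Reference sequences and annotation are those of R64 from RefSeq. The 12 origin entries treat ARS601 and ARS602 as 1 and leave out ARS600, which has 1 bin. Origins, CEN6 and 21 landmark genes were the features named, of which THI5 was not analysed here. Zones, features, genes and tests were chosen with earlier results of these data known. With 1 time course per strain, SDs are over bins, the 2 backgrounds are the only replication, and nothing in the labels says whether they came from separate experiments. Alternatives were an upper asymptote left free, the time of the first crossing, bulk values from a logistic curve, leaving out each timepoint or poorly fitted bins, other limits of the zones, no centring, percentiles, relative copy number and other windows and peak settings.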

Additional observations from a re-analysis of the deposited data

Results flagged for a closer look

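At CEN6 the shift of Trep with SSDDCS had opposite signs in the 2 origin deletion backgrounds, +2.81 min with ARS1008 and ARS1009 deleted and -1.41 min with ARS816 and ARS818 deleted, over 4 bins each. The difference between the backgrounds was not tested, since each rests on 1 time course per strain. No other origin entry of Chr VI measured in both backgrounds had shifts of opposite sign, though relative to the genome-wide median the shift of ARS603.5 was -0.68 min and 0.16 min. The ratios at CEN6 at 15 and 20 min were 1.24 and 1.51 in the SSDDCS ARS1008∆ ARS1009∆ strain and 1.12 and 1.39 in the SSDDCS ARS816∆ ARS818∆ strain, against 1.20 and 1.86 in the sml1∆ ARS1008∆ ARS1009∆ strain and 1.08 and 1.22 in the sml1∆ ARS816∆ ARS818∆ strain. The ratio of 1.86 at 20 min in the sml1∆ ARS1008∆ ARS1009∆ strain stood above that sample's bulk value of 1.45.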

How the results depend on the processing

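The change of the gap between the ends and the middle of Chr VI kept its sign under all alternatives run, percentiles and relative copy number included, and stayed within 1 SD of the 2 backgrounds under those given in minutes. With each timepoint left out it ranged from -11.6 to -9.48 min in the ARS1008∆ ARS1009∆ background and from -7.05 to -6.67 min in the ARS816∆ ARS818∆ background. The gap itself ranged with a timepoint left out from 0.48 to 0.97 min and 1.11 to 1.45 min in the SSDDCS strains, against 10.3 to 12.4 min and 7.91 to 8.32 min in the sml1∆ strains. With a free upper asymptote it was 0.45 and 0.72 min in the SSDDCS ARS1008∆ ARS1009∆ and ARS816∆ ARS818∆ strains, and with ends of 30 kb 0.44 and 0.71 min.

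Shares and counts of bins turned on centring. Without it, 86.8 and 90.8% of bins were earlier, and 142 bins were earlier and 2 later in both SSDDCS strains. With it, 42.8 and 37.2% were earlier than the median shift by over 2 min, against 35.0 and 31.0% of all bins. With a timepoint left out, the shares ranged from 48.8 to 53.2% and 53.0 to 56.8%, and the counts from 76 to 87 and from 71 to 98.

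The number of peaks depended on the setting. In the order SSDDCS ARS1008∆ ARS1009∆, SSDDCS ARS816∆ ARS818∆, sml1∆ ARS1008∆ ARS1009∆ and sml1∆ ARS816∆ ARS818∆, averaging over 3 bins gave 22, 22, 26 and 31 peaks and over 11 bins 7, 5, 6 and 6. A prominence of 2 min gave 7 and 8 in the ARS1008∆ ARS1009∆ strains, SSDDCS and sml1∆, a free asymptote 7 and 7, and a prominence of 0.5 min gave 18 and 28 in the ARS816∆ ARS818∆ strains. With a timepoint left out, the ranges were 10 to 16, 9 to 12, 15 to 20 and 12 to 16. The cause of these differences was not tested.

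Without centring the shift turned from later to earlier in the ARS1008∆ ARS1009∆ background at ARS603.1 (-3.01 min), ARS604 (-3.91 min), ARS605 (-2.32 min), ARS606 (-1.28 min) and ARS607 (-1.12 min), and in the ARS816∆ ARS818∆ background at ARS603.1 (-4.06 min), ARS603.5 (-4.02 min), ARS604 (-1.83 min), ARS605 (-1.81 min), CEN6 (-1.41 min), ARS606 (-0.37 min) and ARS607 (-1.72 min). With the 2 origin deletion backgrounds taken as pairs, a replicate block chosen after seeing the data, the mean change of the gap was -8.98 ± 3.04 min (SD of the 2 changes), and the exact two-sided sign-flip permutation test gave p = 0.5, the smallest p that 2 pairs allow. The depth behind the ratios is unknown.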
